A study of Mus musculus with 16 samples.

Results

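Transcripts of the fibroblast growth factor (FGF) ligands and their receptors were followed in mouse embryonic stem cells as they left the naive state. The genes were chosen by name: Fgf4, Fgf5, Fgf8, Fgf10, Fgf15, Fgf17, Fgfr1, Fgfr2, Fgfr3 and Fgfr4. Of these 10 genes, 9 had a row among the 21455 entries with a gene symbol, 5 ligands and 4 receptors, and Fgf8 was not analysed here. All 9 passed the filter on low values.

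The cells were E14tg2a, a mouse embryonic stem cell line, and the 16 RNA sequencing libraries fell into 8 groups of 2. Cells were labelled WT, DKO or P14. The series is described as wild-type cells, cells with a knockout of Prdm14 in cis and cells overexpressing Prdm14, and the names DKO and P14 were matched to the latter pair by elimination. WT and DKO were sampled in 2i medium and on day 2 and day 4 of induction to epiblast-like cells, and P14 on day 2 and day 4 only. The 2i medium was N2B27 with the MEK inhibitor PD0325901 at 1 µM, the GSK3β inhibitor CHIR99021 at 3 µM and the cytokine LIF at 1000 U/mL. Induction used N2B27 with bFGF, the FGF2 protein, at 12 ng/mL on fibronectin, so every day 2 and day 4 group received an FGF ligand from outside. The labels give no clone, passage, batch or separate culture for the libraries. The p-values therefore measure only the spread between these libraries, which may be technical.

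FGF ligands bind receptor tyrosine kinases at the cell surface together with heparan sulfate, a sugar chain carried by surface proteins. The bound receptors signal through RAS, RAF and MEK to the kinase ERK, which switches on transcription factors and its own inhibitors. In mouse embryonic stem cells, FGF4 made by the cells themselves is the main signal that starts the exit from naive pluripotency. The MEK inhibitor in 2i medium blocks that signal below the receptor.

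The reads recovered from the deposited values summed to 20696338 to 32710604 per library over all entries, which is not the sequencing depth. Replicates of a group correlated at 0.965 to 0.977 across genes. Values below are normalized read counts as mean ± SD with n = 2. Differences are log2 changes on the scale of log2(normalized count + 1) with their standard error (SE), and adjusted p is from limma with Benjamini-Hochberg adjustment over 21450 genes. A gene was called where adjusted p was under 0.05. Prdm14 stood at 1083 and 1096 in WT 2i and at 1803 in both DKO-labelled 2i libraries. On day 4 it was 166 and 219 in WT, 571 and 595 in the libraries labelled DKO, and 7054 and 8014 in P14. Prdm14 was thus higher in the libraries labelled DKO than in WT, which goes against a loss of its transcript, and directions below are given for libraries by their label. All 8 embryonic stem cell markers were detected in each group, but Pou5f1, which encodes OCT4, had group means of only 0.903 to 27.1 beside 2836 to 4513 for Sox2. Summed fibroblast markers were low, at 10.6 to 140. In bulk RNA, fewer cells that express a gene and less transcript per cell cannot be told apart.

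Fgf4 was the member with the largest fall, and its gene lies on chromosome 7 (144847367 to 144865243, plus strand, GRCm38, GENCODE M21). Fgf15 follows on the same strand, at 144896531 to 144900953, with 31288 bases between the end of Fgf4 and the start of Fgf15. That span begins with the first exon of one transcript, and another annotated transcript runs from 144861386 to 144865243. The sequence before this second start is shown because Fgf4 had the largest fall. It is the 250 bases at chr7:144861136-144861385 (GRCm38.p6, plus strand, RefSeq), which end 1 base before that start, with both matches of the GC box GGGCGG in capitals.
Fgf4 promoter: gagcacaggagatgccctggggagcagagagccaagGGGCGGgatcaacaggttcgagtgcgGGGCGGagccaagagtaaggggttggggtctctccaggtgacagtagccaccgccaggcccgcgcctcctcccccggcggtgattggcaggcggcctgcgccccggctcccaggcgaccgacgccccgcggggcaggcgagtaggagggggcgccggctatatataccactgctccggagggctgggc
The GC box was searched on both strands in 250-base windows before gene starts. It was found in 32.7% of 32851 such windows and in 5 of the 6 members with a window, Fgf4, Fgf5, Fgf10, Fgfr3 and Fgfr4. None of these 6 windows, including that of Fgfr2, held the octamer ATGCAAAT (1.60% of all windows), CTTTGTT (5.03%) or GGTCTCTAA, the motif known for PRDM14 (0.24%). Both strands were searched. A match is a description of letters and not a binding site. The enhancer of Fgf4 is known to lie downstream, in its last exon, where a SOX2 site and an OCT4 site stand side by side. That pair was located with a fixed pattern, CTTTGTT and, after any 3 bases, ATG, any base and TAAT. It lies in the 3′ untranslated region of the Fgf4 transcript (exon 3 of 3), 1456 bases after the last coding base, at chr7:144864388-144864417 (plus strand). It is shown with the SOX element and the POU element in capitals.
Fgf4 SOX and POU site: aaaactCTTTGTTtggATGCTAATgggata
On either strand, this pattern occurred in the transcripts of 3 of 55341 genes (0.0054%). The pattern was set for the known Fgf4 site, so its match in Fgf4 was fixed in advance and is no test.

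Fgf4 encodes the secreted ligand that embryonic stem cells make for themselves. In WT 2i its 2 libraries held 1911 and 1830 normalized counts. On day 2 they held 732 and 798, and on day 4 they held 23.7 and 15.3. The 3 WT stages did not overlap, and the fall was steepest between day 2 and day 4. Fgf4 fell by 1.29 on the log2 scale from 2i to day 2 (SE 0.159, adjusted p = 2.1e-05) and was 38.0-fold lower on day 4 than on day 2 (adjusted p = 6.8e-12). From 2i to day 4 it was 93.0-fold lower (adjusted p = 1.0e-13).

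The fall of Fgf4 was smaller in the cells labelled DKO and in P14 than in WT. In the libraries labelled DKO, Fgf4 was 1767 and 1951 in 2i, 1247 and 1212 on day 2, and 108 and 118 on day 4. In P14 it was 1072 and 1036 on day 2 and 76.8 and 82.5 on day 4. These day 4 libraries lay above both WT libraries. Within DKO, Fgf4 fell 1.51-fold from 2i to day 2 (adjusted p = 0.013) and 10.8-fold from day 2 to day 4 (adjusted p = 4.6e-09), and P14 fell 13.1-fold between the later stages (adjusted p = 8.6e-10). The first DKO step was not called without 2i replicate 2 or without either day 2 library (adjusted p 0.064 to 0.11), or with equal totals (adjusted p = 0.077). In 2i, Fgf4 in DKO and WT could not be told apart (1859 ± 130 against 1870 ± 57.5, adjusted p = 0.99). On day 2 it was 1.61-fold higher in DKO than in WT (adjusted p = 0.0096), and on day 4 it was 5.68-fold higher (log2 change 2.51, SE 0.159, adjusted p = 4.5e-08). Without WT replicate 1 or without either DKO library, the day 2 difference was not called (adjusted p 0.055 to 0.093). P14 was 4.01-fold above WT on day 4 (adjusted p = 3.5e-07), and on day 2 it was 1054 ± 26.0 against 765 ± 47.2 (adjusted p = 0.087). The test of the difference between the falls from day 2 to day 4 passed for DKO against WT (log2 difference 1.82, SE 0.225, adjusted p = 1.3e-04) and for P14 against WT (1.54, SE 0.225, adjusted p = 7.1e-04). Both comparisons share the WT libraries. The summed level of the 8 embryonic stem cell markers also went down, from 45882 to 46289 in WT 2i to 8692 to 9293 on WT day 4, and stood at 17690 to 18308 in DKO and 11707 to 12672 in P14 on day 4. None of these markers was at 0 in both libraries of a group, and their part in the Fgf4 difference was not tested. On day 4, P14 was 1.42-fold below DKO (adjusted p = 0.049), a difference not called without any 1 of the 4 libraries (adjusted p 0.094 to 0.21) or under 5 of 9 other settings (adjusted p 0.057 to 0.23).

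**Figure D1:**
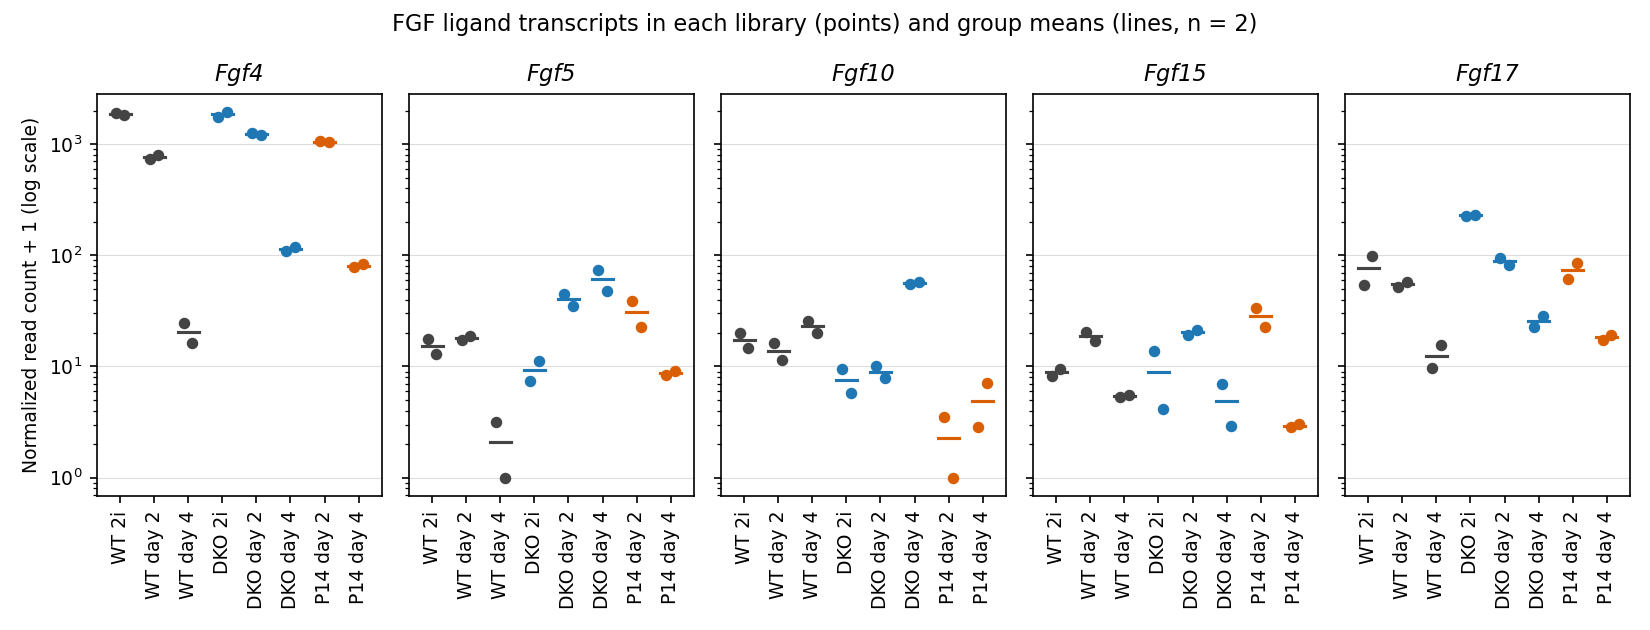
Normalized read count plus 1 (log axis) of the 5 ligands in the 8 groups. Points are libraries and lines are group means (n = 2), with WT in grey, DKO in blue and P14 in orange. Fgf4 falls in each cell type and ends lowest in WT day 4, at 23.7 and 15.3, while the other 4 ligands reach at most 227.

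Fgf17 encodes a secreted ligand of the FGF8 subfamily and lies on chromosome 14 (70636203 to 70642268, minus strand). It was 52.8 and 97.4 in WT 2i, 50.9 and 56.5 on day 2 and 8.63 and 14.4 on day 4. The 2i and day 2 libraries overlapped and both day 4 libraries were lower. The fall from day 2 to day 4 was 4.48-fold in WT (adjusted p = 2.1e-04). In the 2i libraries labelled DKO, Fgf17 stood at 227 in both, above each WT library and 3.13-fold higher by the fit (log2 change 1.65, SE 0.350, adjusted p = 0.0079). That call was lost without WT replicate 1 or without either DKO library (adjusted p 0.057 to 0.10). In DKO it fell to 87.3 ± 10.1 on day 2 and 24.7 ± 4.28 on day 4, with adjusted p of 0.010 and 0.0020 for the 2 steps. The first of these steps was not called without either 2i library or without day 2 replicate 2 (adjusted p 0.058 to 0.075). In P14 it fell 3.96-fold from day 2 to day 4 (adjusted p = 7.8e-04).

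Fgf5, whose transcript is a standard marker of the formative epiblast, lies on chromosome 5 (98254184 to 98277030, plus strand). Its counts were low in all libraries, from 0 to 74 reads. In WT it was 16.8 and 11.9 in 2i and 16.2 and 17.9 on day 2, and the difference was within the spread (log2 change 0.25, SE 0.571, adjusted p = 0.80). Over the same step the summed level of 6 other formative epiblast markers went from 1832 to 1895 in 2i to 13768 to 14285 on day 2. On WT day 4, 1 library held 2.16 and the other no Fgf5 read. Between day 2 and day 4 in WT, the counts went from 34 reads to 2, a ratio of 17.4 (95% exact interval 4.47 to 150, counting error only), and the test passed (adjusted p = 3.3e-04).

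In the cells labelled DKO, Fgf5 rose from 2i to day 2, and its later step was not called. It was 6.36 and 10.3 in 2i, 44.0 and 34.1 on day 2, and 72.8 and 46.8 on day 4. Both later DKO stages lay above both 2i libraries, and the rise to day 2 was 4.36-fold (adjusted p = 0.014). It was not called without 2i replicate 1 or without day 2 replicate 1 (adjusted p 0.10 to 0.11), or with a pseudocount of 0.1 (adjusted p = 0.15). From day 2 to day 4 in DKO the log2 change was 0.58 (SE 0.571, adjusted p = 0.54). On day 4 the DKO libraries held 123 Fgf5 reads and the WT libraries 2, a ratio of 60.6 (95% exact interval 16.4 to 506; adjusted p = 1.8e-05). The test of the difference between the day 2 to day 4 steps of DKO and WT gave 3.92 on the log2 scale (SE 0.807, adjusted p = 0.0066). That size depends on the constant added before the logarithm, since WT day 4 was near 0, and as a fold it was 8.53 or 27.0 when either WT day 4 library was left out. In P14, Fgf5 was 37.9 and 21.8 on day 2 and 7.31 and 8.05 on day 4, a fall with adjusted p = 0.035. That call was lost without day 2 replicate 1 or without either day 4 library (adjusted p 0.11 to 0.21) and under 4 of 9 other settings (adjusted p 0.054 to 0.22). P14 exceeded WT on day 4 with 16 reads against 2 (ratio 7.80, 95% exact interval 1.83 to 69.9; adjusted p = 0.012), a call lost without WT replicate 2 or without either P14 library (adjusted p 0.054 to 0.15) and under 2 of 9 other settings (adjusted p 0.12 to 0.13). It was 6.84-fold lower in P14 than in DKO on day 4 (adjusted p = 0.0040), not called with a pseudocount of 0.1 (adjusted p = 0.086).

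Fgf10, a ligand best known from limb and lung growth, lies on chromosome 13 (118669791 to 118792115, plus strand). It was 19.2 and 13.6 in WT 2i, 15.1 and 10.4 on day 2 and 24.8 and 19.0 on day 4. The first 2 stages overlapped. The highest libraries were those of DKO day 4, at 54.1 and 56.3, after 9.17 and 6.82 on day 2. This rise was 6.30-fold (adjusted p = 0.00998), and it was not called without DKO day 2 replicate 2 or without day 4 replicate 1 (adjusted p 0.052 to 0.074), or with a pseudocount of 0.1 (adjusted p = 0.12). On day 4 the difference between DKO and WT was not called in limma (log2 change 1.31, adjusted p = 0.22), but it was in limma-voom (adjusted p = 0.034). The difference between the DKO and WT steps from day 2 to day 4 was not called in limma. The P14 groups had the lowest means, 1.26 on day 2 and 3.93 on day 4. P14 held 2 reads in 1 day 2 library and none in the other, and 1.83 and 6.04 normalized counts on day 4. Against WT on day 2 the ratio of reads was 10.5 (25 against 2 reads, 95% exact interval 2.61 to 91.2; adjusted p = 0.013). The call was lost without WT replicate 1 or without P14 replicate 2 (adjusted p 0.085 to 0.11) and under 2 of 9 other settings (adjusted p 0.081 to 0.15). On day 4, P14 was 5.09-fold below WT (adjusted p = 0.023), not called without either WT library or without P14 replicate 1 (adjusted p 0.075 to 0.21), or with a pseudocount of 0.1 (adjusted p = 0.16). It was 12.6-fold below DKO on day 4 (adjusted p = 0.0015). Leaving out either P14 day 4 library moved these folds to between 3.23 and 8.03 and between 7.98 and 19.9. The day 2 difference between P14 and DKO was 2 against 18 reads (adjusted p = 0.030), a call lost without either DKO library or without P14 replicate 2 (adjusted p 0.085 to 0.21) and under 3 of 9 other settings (adjusted p 0.056 to 0.19).

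Fgf15 encodes the endocrine ligand that in the gut signals bile acid load to the liver. It had 2 to 26 reads per library. In WT it was 7.20 and 8.47 in 2i, 19.5 and 16.02 on day 2 and 4.32 and 4.51 on day 4. Of the stages sampled, day 2 had the highest mean in all 3 kinds of cells, at 17.7 ± 2.44 in WT, 19.4 ± 1.51 in DKO and 27.3 ± 7.76 in P14. P14 had no 2i libraries, and in limma no change of Fgf15 from 2i to day 2 was called in WT or DKO. From day 2 to day 4 it fell 9.52-fold in P14 (adjusted p = 0.0018), 4.55-fold in DKO (adjusted p = 0.025) and 3.45-fold in WT (adjusted p = 0.043). Each P14 day 4 library held 2 reads, so the P14 fold depends on the constant added before the logarithm. It was 7.82 to 11.6 with 1 library left out. The order of the 3 folds is thus no result. The WT call was lost without any 1 of the 4 libraries (adjusted p 0.10 to 0.17) and under 3 of 9 other settings (adjusted p 0.063 to 0.074). The DKO call was lost without either day 2 library or without day 4 replicate 2 (adjusted p 0.089 to 0.18) and with the compared groups alone (adjusted p = 0.068), and its fold was 2.95 or 7.004 when either day 4 library was left out. Antisense gene Gm26793 overlaps exons of Fgf15 and held 0 to 17.1 normalized counts, and the strand setting of the counting is not given in the sources used here.

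Among the receptors, Fgfr1 had the highest level per kb of exon in all groups but P14 day 4. FGFR1 is the main FGF receptor of embryonic stem cells and the epiblast, and its gene lies on chromosome 8 (25513654 to 25575718, plus strand). In WT, Fgfr1 was 1294 and 1322 in 2i, 1606 and 1407 on day 2 and 2778 and 2823 on day 4. Day 4 stood clear of both earlier stages, and the rise from day 2 was 1.86-fold (log2 change 0.90, SE 0.114, adjusted p = 2.2e-05). In DKO it rose at both steps, from 866 and 688 in 2i to 1331 and 1218 on day 2 and 1886 and 1769 on day 4. These rises were 1.65-fold (adjusted p = 2.4e-04) and 1.43-fold (adjusted p = 0.0044), and the second was not called without day 2 replicate 2 (adjusted p = 0.055). DKO was 1.69-fold below WT in 2i (adjusted p = 5.9e-04) and 1.53-fold below it on day 4 (adjusted p = 0.0017).

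In P14, Fgfr1 fell. It was 1332 and 1223 on day 2 and 721 and 698 on day 4, and both day 4 libraries lay below both day 2 libraries. It fell 1.80-fold (adjusted p = 8.0e-05). The day 4 level was 3.94-fold below WT (log2 change -1.98, SE 0.114, adjusted p = 1.4e-08) and 2.57-fold below DKO (adjusted p = 9.7e-07). The step from day 2 to day 4 differed between P14 and WT by -1.74 on the log2 scale (SE 0.161, adjusted p = 1.7e-05). Gm16159, an antisense gene that overlaps exons of Fgfr1, held 48.3 to 297 normalized counts. It was also lower in P14 than in WT on day 4 (log2 change -1.78, adjusted p = 1.6e-04). Reads of the pair cannot be told apart where strand was not used.

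Summed markers of other lineages also differed between some of these groups. On day 4 the 6 neuroectoderm markers summed to 7844 to 8560 in WT, 3925 to 4274 in DKO and 2012 to 2373 in P14. The 8 primitive endoderm markers summed to 5172 to 5527 in WT, 7235 to 7996 in DKO and 438 to 492 in P14. The 6 trophectoderm markers with a row summed to 1897 to 2084 in WT, 1867 to 2141 in DKO and 972 to 1037 in P14. Here WT and DKO overlapped. The 4 primitive streak markers with a row summed to 138 to 140 in WT, 392 to 394 in DKO and 133 to 142 in P14. In 2i the endoderm markers summed to 1275 to 1537 in WT, with Sox7 at 0, and to 1740 to 1747 in DKO. On WT day 2 they summed to 2050 to 2448. The trophectoderm sum went from 1757 to 1975 in WT 2i to 676 to 767 on WT day 2. None of these markers was at 0 in both libraries of a day 4 group. Their part in the receptor differences was not tested.

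Fgfr2 encodes a receptor that in the early embryo is typical of primitive endoderm precursors and trophectoderm, and lies on chromosome 7 (130162451 to 133123350, minus strand). It was 319 and 247 in WT 2i, 844 and 785 on day 2 and 1090 and 1033 on day 4. Each later WT stage lay above the one before. The rise from 2i to day 2 was 2.89-fold (log2 change 1.53, SE 0.126, adjusted p = 2.9e-07). The next step was 1.30-fold (adjusted p = 0.030), and this call was lost without any 1 of the 4 libraries (adjusted p 0.065 to 0.15) and with library medians made equal (adjusted p = 0.22). In DKO, Fgfr2 was 478 and 434 in 2i, 740 and 814 on day 2, and 1530 and 1332 on day 4. Both DKO steps were called, at 1.70-fold (adjusted p = 3.5e-04) and 1.84-fold (adjusted p = 1.6e-04). In P14 it was 493 and 500 on day 2 and 1101 and 1139 on day 4, a 2.25-fold rise (adjusted p = 1.1e-05).

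Fgfr2 was then compared between the kinds of cells stage by stage. In 2i, DKO was 1.62-fold above WT (adjusted p = 0.0027). On day 2 the 2 were within the spread of their libraries (777 ± 52.1 against 815 ± 41.7, adjusted p = 0.80). The rise from 2i to day 2 was smaller in DKO than in WT by 0.77 on the log2 scale (SE 0.178, adjusted p = 0.025). That call was lost in 6 of the 8 fits that left out 1 library, namely without WT 2i replicate 2, either WT day 2 library, DKO 2i replicate 1 or either DKO day 2 library (adjusted p 0.052 to 0.11), and with equal totals and limma-voom (adjusted p = 0.11 and 0.12). On day 4, DKO was 1.35-fold above WT (adjusted p = 0.034), not called without either WT library or without DKO replicate 1 (adjusted p 0.098 to 0.22), or under 3 of 9 other settings (adjusted p 0.054 to 0.12). P14 was 1.64-fold below WT on day 2 (adjusted p = 0.0020) and 1.56-fold below DKO (adjusted p = 0.0025). On day 4 no difference between P14 and WT was called (1120 ± 26.8 against 1061 ± 40.4, log2 change 0.08, 95% interval -0.19 to 0.35). The larger rise in P14 than in WT, 0.79 on the log2 scale, passed the test of the difference (SE 0.178, adjusted p = 0.016). It was not called without WT day 2 replicate 1, WT day 4 replicate 2 or P14 day 4 replicate 2 (adjusted p 0.060 to 0.071), or with equal totals and limma-voom (adjusted p = 0.058 and 0.051). Exons of Ctbp2, which held 2565 to 5001 normalized counts, overlap the annotated Fgfr2 gene on the same strand. A share of reads could thus be assigned to either. The Fgfr2 span given above is that of all its annotated transcripts together, and so is the exon length used per kb.

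**Figure D2:**
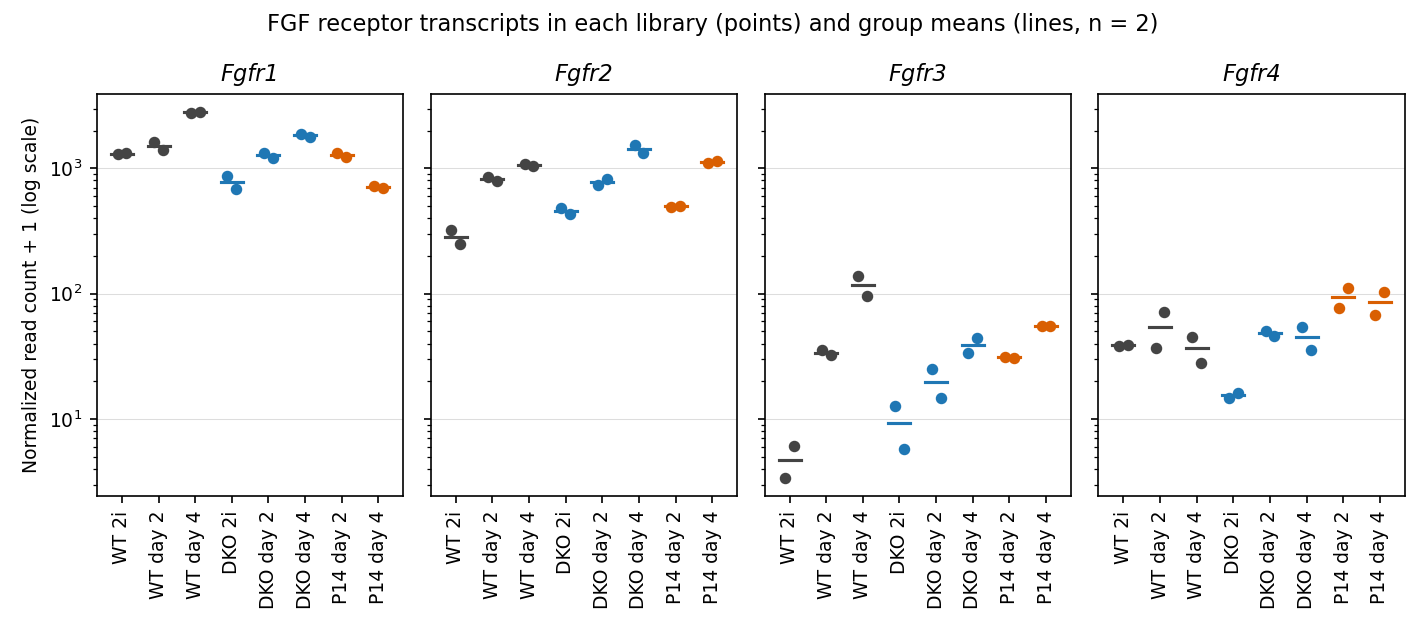
Normalized read count plus 1 (log axis) of the 4 receptors in the 8 groups, with libraries as points and group means as lines (n = 2). Fgfr1 rises to 2800 in WT day 4 and falls to 709 in P14 day 4, while Fgfr2 rises to above 1000 on day 4 in all 3 kinds of cells.

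Fgfr3 encodes a receptor known for restraining bone growth and is expressed in early neural tissue. It lies on chromosome 5 (33721674 to 33737068, plus strand). It went from 2.40 and 5.08 in WT 2i to 34.6 and 31.1 on day 2 and 138 and 93.9 on day 4. The stages did not overlap, and day 4 was 25.3-fold above 2i (log2 change 4.66, SE 0.469, adjusted p = 1.0e-06). Leaving out 1 library moved this fold to between 18.9 and 33.8. The WT 2i libraries held only 2 and 6 reads, so folds against them depend on the constant added before the logarithm. The rise from 2i to day 2 was 7.44-fold (adjusted p = 3.0e-04), or 5.56-fold to 9.94-fold with 1 library left out. From day 2 to day 4 it was 3.40-fold (adjusted p = 0.0090), a call lost without WT day 2 replicate 2 or without day 4 replicate 1 (adjusted p 0.053 to 0.086). In DKO, Fgfr3 was 11.7 and 4.75 in 2i, 23.8 and 13.6 on day 2, and 32.5 and 43.0 on day 4. Neither DKO step of Fgfr3 was called (adjusted p = 0.095 and 0.15 in limma). The tests of the difference between its DKO and WT steps were not called either. On day 4 it was 3.00-fold lower in DKO than in WT (adjusted p = 0.035), a call lost without any 1 of the 4 libraries (adjusted p 0.071 to 0.22) and with a pseudocount of 0.1 (adjusted p = 0.059). P14 held 30.3 and 29.9 on day 2 and 53.9 and 54.4 on day 4 (log2 change 0.83, adjusted p = 0.23). Both P14 day 4 libraries also lay below both WT libraries, without a call in limma (log2 change -1.06, adjusted p = 0.15). That difference was called in limma-voom (adjusted p = 0.018) and in limma with the compared groups alone (adjusted p = 0.030). The pseudogene Fgfr3-ps had its own row, with group means of 77.7 to 143, and a gene on the other strand, G630022F23Rik, overlaps Fgfr3 with 0 to 37.8 normalized counts. How reads shared by these genes were assigned is not given in the sources used here.

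Fgfr4 encodes the receptor that serves FGF15 in the liver, and lies on chromosome 13 (55152640 to 55168759, plus strand). It was 37.2 and 38.1 in WT 2i, 35.7 and 70.7 on day 2 and 44.2 and 27.1 on day 4, and the stages overlapped. The 2i libraries labelled DKO were the lowest, at 13.8 and 15.1. On day 2 they were at 49.5 and 45.2, a rise of 3.14-fold (adjusted p = 0.0065), not called without day 2 replicate 1 (adjusted p = 0.051). P14 held 75.7 and 110 on day 2 and 66.7 and 102 on day 4. DKO was 2.51-fold below WT in 2i (adjusted p = 0.048), and P14 was 2.34-fold above WT on day 4 (adjusted p = 0.045). The first call was lost without any 1 of the 4 libraries (adjusted p 0.15 to 0.20) and under 6 of 9 other settings (adjusted p 0.052 to 0.23), and the second without WT replicate 2 or without either P14 library (adjusted p 0.063 to 0.31) and under 4 of 9 other settings (adjusted p 0.051 to 0.069).

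The members were then counted in each comparison beside the share of all 21450 genes called in the same direction. From 2i to day 2 in WT, 2 of 9 rose (12.7% of all genes) and 1 fell (10.8%). Between day 2 and day 4 in WT, 3 rose (17.2% of all genes) and 4 fell (15.8%). From 2i to day 4 in WT it was 3 (21.9%) and 3 (18.7%). The 3 that rose at these last 2 comparisons were receptors, Fgfr1, Fgfr2 and Fgfr3, and those that fell were ligands. In DKO, 4 rose (12.3%) and 2 fell (9.15%) from 2i to day 2, and 3 rose (10.5%) and 3 fell (9.59%) from day 2 to day 4. In P14, 1 rose (11.5%) and 5 fell (11%) from day 2 to day 4, the 5 being Fgf4, Fgf5, Fgf15, Fgf17 and Fgfr1.

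Members were counted in the same way between kinds of cells at a single stage, where the shares of all genes called were also lower. Against WT, the DKO-labelled libraries had 2 members higher (3.19% of all genes) and 2 lower (5.47%) in 2i. On day 2 they had 1 higher (5.98%) and 0 lower (6.64%), and on day 4 they had 3 higher (6.95%) and 2 lower (6.8%). On day 2 the 0 lower members compare with 0 at an unadjusted p under 0.05 in limma and 0 in limma-voom. P14 against WT gave 0 higher (3.69%) and 2 lower (4.69%) on day 2 and 3 higher (7.43%) and 2 lower (8.75%) on day 4. P14 against DKO gave 0 higher (7.86%) and 2 lower (8.03%) on day 2, and 0 higher (6.2%) and 4 lower (7.17%) on day 4. For the differences between steps, DKO against WT gave 0 higher (2.42%) and 1 lower (1.31%) from 2i to day 2, and 2 higher (4.53%) and 0 lower (4.07%) from day 2 to day 4. P14 against WT gave 2 higher (2.5%) and 1 lower (2.93%). For the counts of 0 higher, limma at an unadjusted p under 0.05 and limma-voom gave 2 and 1 in P14 against WT on day 2. They gave 1 and 0 in P14 against DKO on day 2 and again on day 4, and 4 and 1 for the DKO difference between steps from 2i to day 2. For the count of 0 lower from day 2 to day 4 they gave 1 and 0. The DKO and P14 comparisons with WT share the WT libraries.

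**Figure D3:**
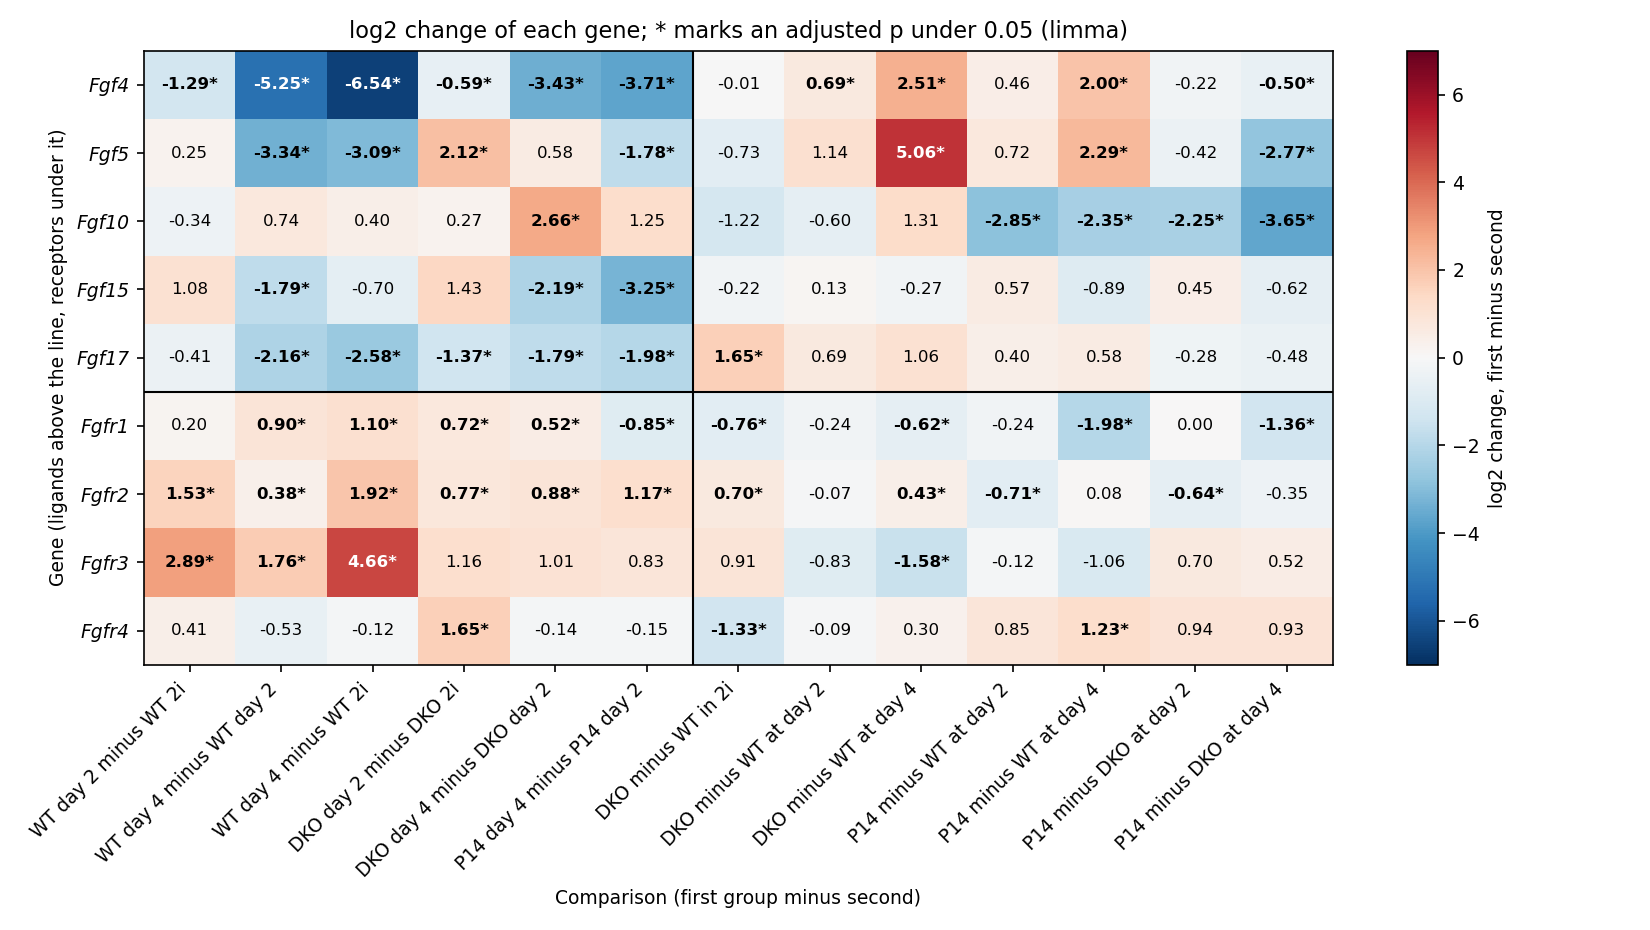
log2 change of each of the 9 members (rows) in 13 comparisons (columns, first group minus second), with an asterisk where adjusted p was under 0.05. Fgf4 ranges from -6.54 between WT 2i and WT day 4 to 2.51 between DKO and WT on day 4, and Fgfr1 reaches -1.98 between P14 and WT on day 4.

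Levels of different genes were compared per kb of exon. In WT 2i, Fgf4 led with 585 per kb, before Fgfr1 at 132, Fgf17 at 44.5 and Fgfr2 at 27.4. In WT day 4 the receptors led, with Fgfr1 at 284, Fgfr2 at 103, Fgfr3 at 16.2 and Fgfr4 at 10.1, and Fgf4 was at 6.12. The 5 ligands summed to 642 ± 1.30 per kb in WT 2i, 287 ± 16.1 on day 2 and 19.6 ± 0.890 on day 4. Over the same stages the 4 receptors summed to 171 ± 2.57, 251 ± 11.6 and 413 ± 8.47. Fgf4 made up 91.2% ± 2.62 of the summed ligand level in WT 2i, 31.1% ± 8.08 in WT day 4, 40.7% ± 4.05 in DKO day 4 and 62.8% ± 1.33 in P14 day 4. The P14 receptor sum stayed at 208 ± 0.4999 on day 2 and 212 ± 7.91 on day 4, while that of DKO went from 220 ± 4.88 to 341 ± 24.7.

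In both P14 day 4 libraries Fgfr2 exceeded Fgfr1 per kb. The log2 ratio of Fgfr2 to Fgfr1 was -2.08 and -2.49 in WT 2i, -0.99 and -0.91 on day 2, and -1.41 and -1.52 on day 4. In DKO it was -0.92 and -0.73 in 2i, -0.91 and -0.65 on day 2 and -0.37 and -0.47 on day 4. In P14 it was -1.50 and -1.36 on day 2 and 0.55 and 0.64 on day 4. Of the 16 libraries, these 2 were the only ones with more Fgfr2 than Fgfr1. Fgfr1 made up 34.0% ± 2.07 of the receptor level per kb there, against 68.7% ± 2.20 in WT day 4 and 54.3% ± 1.47 in DKO day 4. The ratio is given as a description, with no test. It carries the overlap with Ctbp2 and Gm16159 described above.

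**Figure D4:**
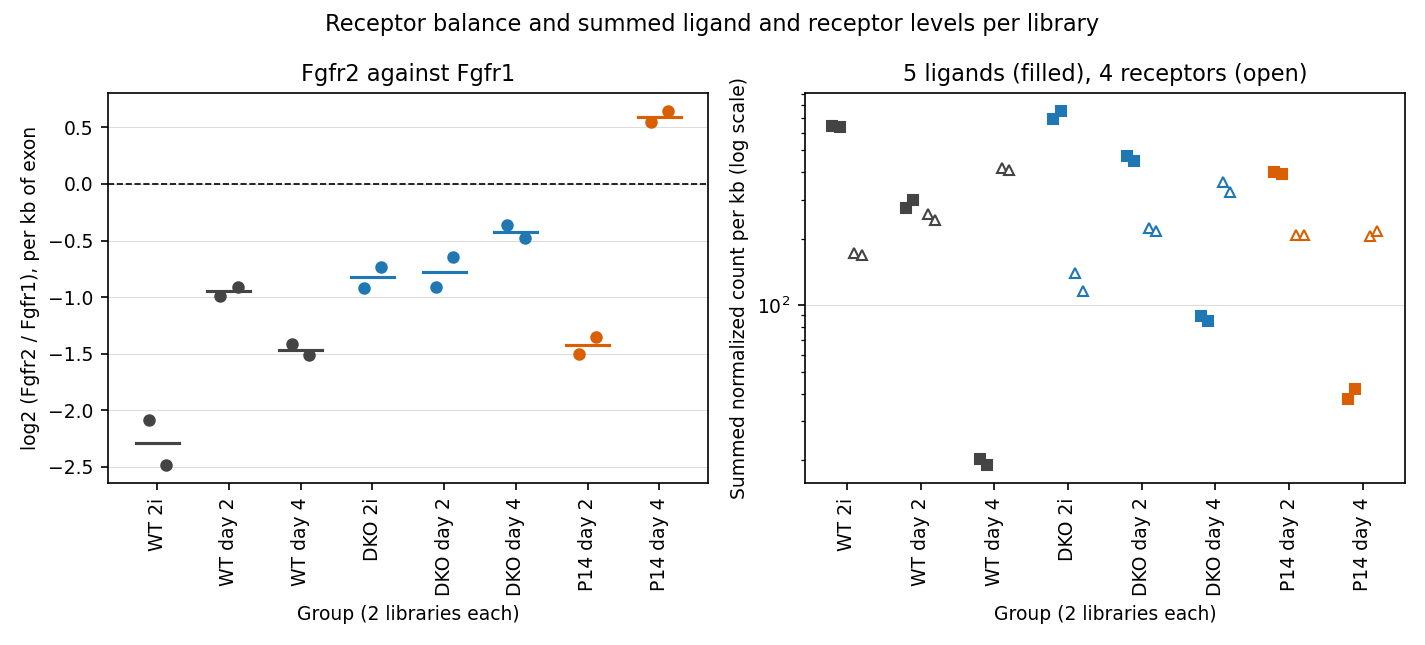
Left, log2 ratio of Fgfr2 to Fgfr1 per kb of exon in each library, with group means as lines and a dashed line at 0. Right, summed normalized count per kb (log axis) of the 5 ligands (filled squares) and 4 receptors (open triangles). Both P14 day 4 libraries, at 0.55 and 0.64, lie above 0, and the ligand sum falls from 642 in WT 2i to 19.6 in WT day 4.

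Other genes of the pathway were counted in 7 fixed lists. Genes of the ERK response rose from 2i, with its MEK inhibitor, to day 2, with bFGF. The medium change also took away LIF and the GSK3β inhibitor, and the parts of these changes cannot be told apart. From 2i to day 2 in WT, 11 of 17 ERK feedback and response genes rose (12.7% of all genes) and 1 fell (10.8%), with a median log2 change of 1.04 beside 0.03 for all genes. Without WT 2i replicate 1, 7 rose. Dusp4, a phosphatase of ERK, went from 136 ± 15.9 to 2673 ± 298, 19.5-fold (adjusted p = 3.0e-12), and Dusp6, another, rose 3.42-fold (adjusted p = 3.1e-09). Etv5, an ETS transcription factor, fell 1.45-fold (adjusted p = 0.0013). In DKO over the same step, 13 of 17 rose (12.3% of all genes) and 0 fell (9.15%), with Dusp4 at 9.11-fold (adjusted p = 5.6e-11). The Dusp4 rise was smaller in DKO than in WT in the test of the difference (log2 difference -1.10, adjusted p = 0.0011). For the count of 0, limma gave 0 genes lower at an unadjusted p under 0.05 and limma-voom gave 0.

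In 2i, 0 of the 17 ERK genes were higher in DKO than in WT (3.19% of all genes) and 6 were lower (5.47%). For this count of 0, limma at an unadjusted p under 0.05 gave 0 and limma-voom gave 0. On day 2 against WT, DKO had 1 higher (5.98%) and 4 lower (6.64%), and P14 had 1 higher (3.69%) and 7 lower (4.69%). On day 4 the ERK list was mixed against WT. Compared with WT, 8 of 17 were higher (6.95% of all genes) and 3 lower (6.8%) in DKO, led by Myc (2.83-fold higher, adjusted p = 4.8e-07) and by Dusp5 (3.73-fold lower, adjusted p = 8.3e-04). P14 had 4 higher (7.43%) and 6 lower (8.75%) than WT, with Etv5 2.25-fold higher (adjusted p = 1.2e-06) and Spred3, which encodes an inhibitor of the cascade, 4.87-fold lower (adjusted p = 1.5e-04). Against DKO, P14 had 0 higher (6.2% of all genes; 1 at an unadjusted p under 0.05 in limma, 0 in limma-voom) and 8 lower (7.17%), among them Spry1, an inhibitor that ERK signalling induces (2.01-fold lower, adjusted p = 8.9e-05).

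Coreceptors, decoys and binding proteins, and heparan sulfate genes, were counted over the step to day 4 and on day 4. In WT from day 2 to day 4, 5 of 8 coreceptors, decoys and binding proteins rose (17.2% of all genes) and 0 fell (15.8%), with a median log2 change of 1.65 beside 0.02 for all genes. Fgfbp3, which releases FGFs from the matrix, went up 10.6-fold (adjusted p = 3.7e-05). Of 22 heparan sulfate proteoglycans and enzymes, 15 rose and 1 fell, with a median log2 change of 0.79. The syndecan Sdc3 rose 5.35-fold (adjusted p = 2.9e-04), or 3.26-fold and 8.78-fold when either WT day 2 library was left out. Hs6st1, a sulfotransferase, fell 1.24-fold (adjusted p = 0.046), a call lost without any 1 of the 4 libraries (adjusted p up to 0.27) and with equal totals or limma-voom (up to 0.32). In P14 on day 4, 5 of 8 and 12 of 22 genes of these 2 lists were lower than in WT (8.75% of all genes) and 0 of each were higher (7.43%). Klb, the coreceptor β-Klotho that endocrine FGFs need, held 0.914 and 10.1 in P14 against 66.9 and 57.8 in WT, from 1 and 10 reads in P14. It was 13.7-fold lower by the fit (adjusted p = 0.0011), and 5.71-fold or 33.0-fold lower when either P14 library was left out (adjusted p up to 0.019). Flrt3, a membrane protein that binds FGF receptors, was 8.73-fold lower (adjusted p = 3.1e-08). The sulfotransferase Hs6st2 was 5.66-fold lower (adjusted p = 7.5e-04). In DKO on day 4, against WT, 2 of 22 were higher (6.95% of all genes) and 3 lower (6.8%), and of 8 coreceptor genes 0 were higher and 2 lower. The lower counts stood above their share of all genes, but they rest on few genes and are no result about these lists. Leaving out 1 library gave 1 to 2 lower of the 22 and 0 to 2 of the 8, with 0 of the 8 without WT replicate 1 or without DKO replicate 1. For the counts of 0, limma at an unadjusted p under 0.05 and limma-voom gave 0 for the coreceptor list in these comparisons, and gave 2 and 1 genes higher for the heparan sulfate list in P14.

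Of 21 receptor adaptors and members of the ERK cascade, 4 rose (12.7% of all genes) and 2 fell (10.8%) in WT from 2i to day 2, and 1 fell without any 1 of the 4 libraries. Counts this near the shares of all genes are no result about the list. Its largest called rise was that of the kinase Braf (3.81-fold, adjusted p = 2.5e-08) and its largest called fall that of the adaptor Shc1 (1.51-fold, adjusted p = 2.2e-04). Gab1, an adaptor of receptor tyrosine kinases, was lower in DKO than in WT in 2i (1.93-fold, adjusted p = 3.4e-05) and on day 4 (1.94-fold, adjusted p = 9.6e-06). In the list of 4 regulators of receptor splicing, Esrp1 rose 5.68-fold (adjusted p = 0.0043) and Esrp2 fell 2.63-fold (adjusted p = 3.9e-04) from 2i to day 2 in WT. ESRP proteins favour the epithelial splice form of FGFR2, and counts per gene do not separate splice forms.

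**Figure D5:**
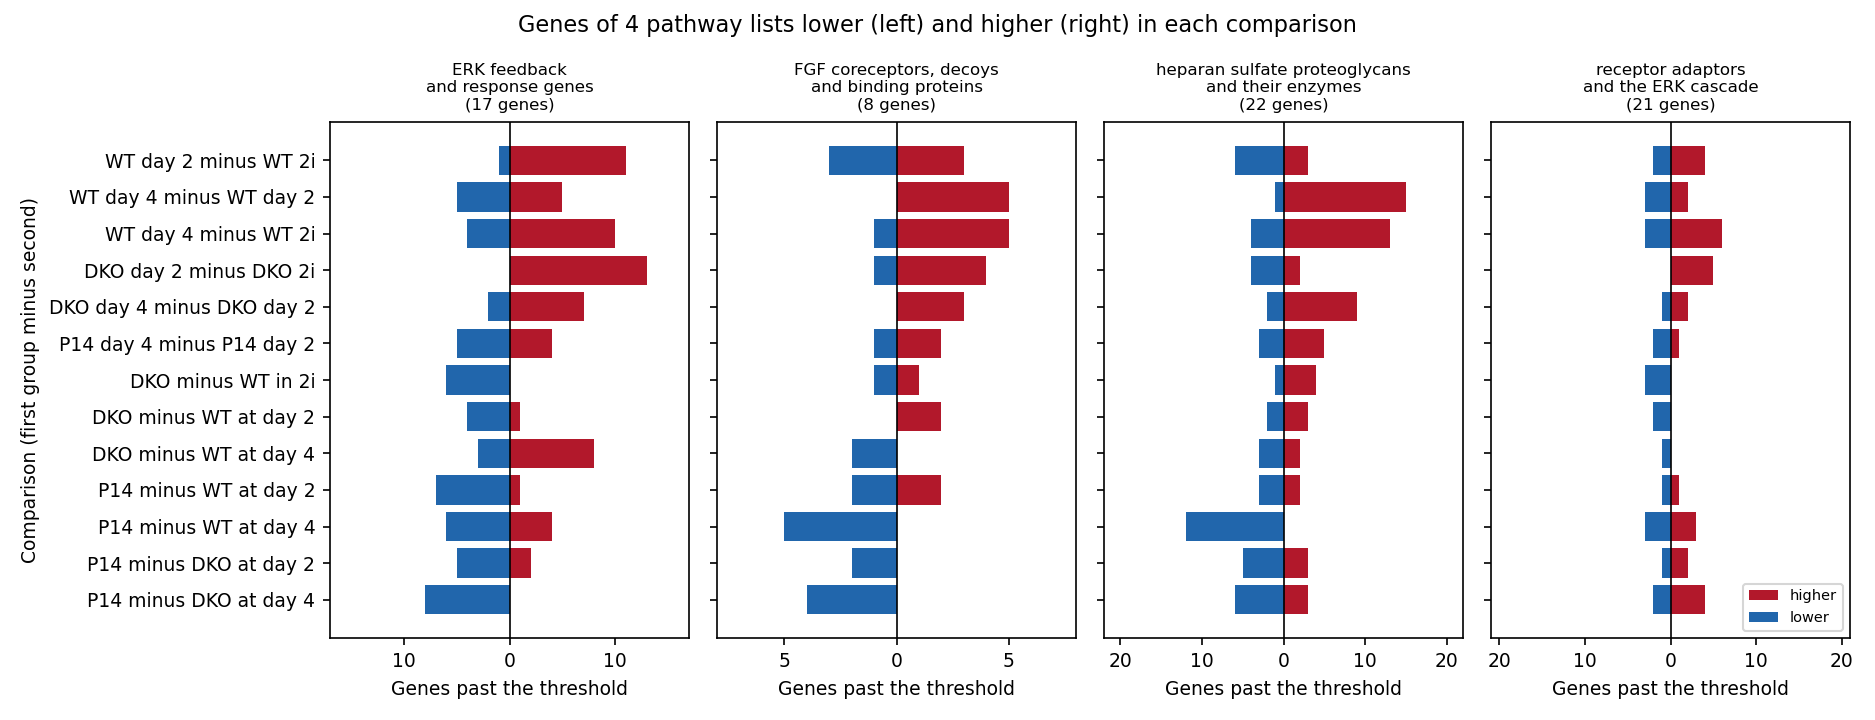
Number of genes past the threshold in 4 pathway lists for 13 comparisons, with genes lower in the first group to the left (blue) and higher to the right (red); the axis of each panel spans the list. The ERK list has 11 higher from WT 2i to WT day 2, and the heparan sulfate list has 12 lower in P14 than in WT on day 4.

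The genes whose profile was most like that of a member over the 16 libraries were found among 14569 genes by Pearson r on log2 values. The libraries share their groups, so these r describe group patterns. For Fgf4 they were Mybl2 (0.987) and Mtf2 (0.986). For Fgf17 they were Gli1 (0.979) and Mthfd1 (0.962), for Fgf5 Tnfsf13 (0.893) and Tlr2 (0.873), and for Fgf10 Zfp609 (0.912) and Nkain1 (0.905). For Fgfr2 they were Zfp316 (0.963) and Hnrnph3 (0.955), for Fgfr3 Ece1 (0.971) and Cacna1g (0.964), and for Fgfr4 Fam13c (0.947) and Adrb3 (0.896).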

How the data were processed

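Total RNA of 16 libraries was sequenced after a stranded preparation, as stated in the labels' protocols. Per the submitters' processing notes, Trim Galore, HISAT2 and featureCounts were used with mm10/GRCm38. For tool versions, gene models, strand setting and scaling nothing was given in the sources used here. What the authors deposited are log2 values. Within each library, 2 raised to a value, minus 4, was a whole number of equal steps (100% of values under 1000 reads were whole within 0.1), so they were read as log2(normalized read count + 4), with steps of 0.792 to 1.26. Of 22122 entries, 667 without a symbol held 7.61% to 11.1% of the reads and were not tested. Of the columns, 0 came from outside the series.

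Tests used log2(normalized count + 1) for the 21450 genes with at least 1 in 2 libraries. limma 3.58.1 (R 4.3.3) fitted 8 group means to all 16 libraries with a trended variance, and p-values were adjusted over all genes in each of 16 comparisons (Benjamini-Hochberg, 0.05). The unit of the values decided between the tests laid down for counts and for normalized values. Ratios for groups with 1 to 3 reads use pooled reads with an exact binomial 95% interval. Intervals cover counting error only. Exon lengths and positions came from GENCODE M21, and sequences from RefSeq (GRCm38.p6) and GENCODE transcripts. Tables and plots were made in Python 3.11.15 (numpy 2.4.6, pandas 2.3.3, matplotlib 3.10.9), and the fit was tested on simulated data.

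The members and lists were chosen with earlier results of these data known. Each member with a row was named. Other pathway genes could be named where they were among the 2 strongest called rises or falls of a list in a comparison and averaged at least 10 in 1 of the groups. Most alike genes were the 2 with the highest r, for members reaching a group mean of 50 and a log2 span of 2, among genes averaging at least 10 in 1 group. Prdm14, overlapping genes, markers and Fgf2 were named for context. Alternatives were pseudocounts of 0.1 and 4, no filter or at least 10 in 2 libraries, equal library medians, equal totals of named entries, limma-voom on recovered reads, the compared groups alone, the replicate number as a block, and each library left out. Running them also for other named pathway genes and list counts was chosen after seeing the data.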

Additional observations from a re-analysis of the deposited data

Results flagged for a closer look

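In 6 cases a member's step between stages differed from the same step in WT by the test of the difference itself (limma, adjusted over 21450 genes). Fgfr2 rose less from 2i to day 2 in the cells labelled DKO than in WT (log2 difference -0.77, adjusted p = 0.025). From day 2 to day 4, Fgf4 fell less in DKO than in WT (1.82, adjusted p = 1.3e-04), and the step of Fgf5 also differed (3.92, adjusted p = 0.0066), with a called fall in WT and no call in DKO (0.58, adjusted p = 0.54). In P14, Fgf4 fell less over that step (1.54, adjusted p = 7.1e-04), Fgfr1 fell where it rose in WT (-1.74, adjusted p = 1.7e-05), and Fgfr2 rose more (0.79, adjusted p = 0.016). The DKO and P14 differences share the WT libraries, and the libraries labelled DKO held more Prdm14 transcript than WT. Both Fgfr2 differences were lost in some fits that left out 1 library, in 6 of 8 for DKO and in 3 of 8 for P14, and both were lost with equal totals (adjusted p = 0.11 and 0.058) and with limma-voom (adjusted p = 0.12 and 0.051). The antisense gene Gm16159, which overlaps Fgfr1, differed in the same step of P14 by -1.84 on the log2 scale (adjusted p = 0.0070).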

How the results depend on the processing

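Of 63 called member results, 38 kept their call under every alternative run, 0 changed sign, and 9 of 81 uncalled results were called under at least 1 alternative. With a pseudocount of 0.1 the count of called members was 3 in P14 against WT on day 4 and 2 in P14 against DKO on day 4. With a pseudocount of 4, with limma-voom and with the compared groups alone it was 1 in P14 against DKO on day 2. With the compared groups alone it was 1 in P14 against WT on day 2 and 2 for the DKO difference between steps from 2i to day 2, which had 0 with equal totals. Under limma-voom that difference had 1 call, Fgf4 higher (adjusted p = 0.015) in place of Fgfr2, and P14 against WT on day 2 had Fgf4 higher (adjusted p = 0.041) and Fgfr2 lower, without Fgf10 (adjusted p = 0.081). Leaving out 1 library gave 4 to 5 calls for WT day 4 against day 2, 3 to 6 for DKO day 2 against 2i, 3 to 5 for DKO day 4 against day 2, 2 to 3 for DKO against WT in 2i, 0 to 1 on day 2 and 3 to 4 on day 4. It gave 1 to 2 for P14 against WT on day 2, 2 to 4 on day 4, 1 to 2 for P14 against DKO on day 2, and 0 to 1 for the DKO difference from 2i to day 2. The cause of these changes was not tested.

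The replicate numbers pair nothing in the labels, deviations of same-numbered libraries correlated at -0.131 to 0.194 over 28 pairs of groups, and each of the 16 libraries correlated best with the other of its own group. With the replicate number as a block the counts were 3 for DKO against WT in 2i, 6 on day 4, 4 for P14 against WT on day 4 and 3 for P14 against DKO on day 4. The block lost the calls of Fgfr4 in DKO against WT in 2i (adjusted p = 0.059), Fgfr4 in P14 against WT on day 4 (0.054) and Fgf4 in P14 against DKO on day 4 (0.057), and added Fgf17 in DKO against WT on day 4 (0.042), all by limma.

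In 36 alternative values of 21 uncalled results the sign changed, with sizes up to 0.64, and 26 of them left out 1 library. With equal totals these were Fgfr4 0.042 (WT day 4 against 2i), Fgf4 0.034 (DKO against WT in 2i), Fgfr2 0.045 and Fgfr4 0.025 (DKO against WT on day 2) and Fgfr1 -0.12 (P14 against DKO on day 2). With limma-voom they were, in the same order without Fgfr4 on day 2, 0.012, 0.039, 0.044 and -0.11. With a pseudocount of 4 the P14 difference between steps of Fgf10 was -0.051. Leaving out 1 library gave the following ranges. For Fgfr4 they were -0.075 to 0.89 (WT day 2 against 2i), -0.46 to 0.23 (WT day 4 against 2i), -0.45 to 0.16 (DKO day 4 against day 2), -0.45 to 0.15 (P14 day 4 against day 2), -0.57 to 0.40 and -0.049 to 0.64 (DKO against WT on day 2 and day 4), and -0.10 to 0.86 and -0.11 to 0.86 (difference between steps from day 2 to day 4, DKO and P14). For Fgf15 they were -1.08 to 0.64, -0.0071 to 0.26 and -0.90 to 0.35 (DKO against WT in 2i, on day 2 and on day 4), -1.24 to 0.0048 (P14 against DKO on day 4), and -0.51 to 1.21 and -1.02 to 0.22 (DKO difference between steps from 2i to day 2 and from day 2 to day 4). They were -0.85 to 0.022 for Fgf17 (WT day 2 against 2i), -0.16 to 0.52 for Fgf17 and -0.40 to 1.41 for Fgf10 (P14 difference between steps), -0.088 to 0.63 for Fgf10 (DKO day 2 against 2i), -0.082 to 0.061 for Fgf4 (DKO against WT in 2i) and -0.060 to 0.068 for Fgfr1 (P14 against DKO on day 2).

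Under another scaling the median log2 change of all genes reached a size of 0.202, and with it the share of called genes that were higher. That share went from 52.0% to 35.1% with equal medians and 61.9% with equal totals for WT day 4 against day 2, from 53.8% to 38.6% and 65.5% against 2i, and from 51.2% to 37.5% and 61.7% for P14 day 4 against day 2. It went from 57.4% to 71.2% (DKO day 2 against 2i), from 47.4% to 64.4% (DKO against WT on day 2), from 49.5% to 34.2% (P14 against DKO on day 2) and from 64.8% to 75.8% (DKO difference from 2i to day 2) with equal totals, and from 52.2% to 41.4% (DKO day 4 against day 2) and 46.1% to 57.7% (P14 difference) with equal medians. For the DKO difference from day 2 to day 4 it went from 52.7% to 66.8% with equal medians and 31.0% with equal totals. Members with few reads, Fgf5, Fgf10 and Fgf15, and Fgfr3 in 2i, are limited by depth.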

Other observations

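Other secreted FGF ligands were also present. Fgf1, a ligand that binds all FGF receptors, rose from 18.7 in WT 2i to 96.1 on day 2 (4.92-fold, adjusted p = 2.0e-05 in limma), and in DKO from 10.7 to 136 (11.6-fold, adjusted p = 2.4e-07). On day 4 it was 204 in DKO and 58.9 in WT, 3.42-fold higher (adjusted p = 4.8e-04). Fgf3, a ligand of the ear and tail bud, was 2.93 in P14 on day 4, against 23.9 in WT (6.55-fold lower, adjusted p = 0.0014) and 32.9 in DKO (8.99-fold lower, adjusted p = 5.7e-04). In the P14 day 4 libraries 3 reads equal 2.74 and 3.02 normalized counts, so both folds depend on the constant added before the logarithm. With 1 library left out they were 4.91 to 8.73 and 6.74 to 12.0. The cells' own Fgf2 transcript had group means of 20.1 to 31.5.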
